A study of Mus musculus with 6 samples.

Results

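The genes described here are those for collagen chains, for the enzymes and chaperones that fold, trim and cross-link collagen, and for the other main components of the basement membrane. The set holds 48 gene symbols, of which 35 were found by exact symbol among the 10520 genes of the deposited count table; Col5a2, Col27a1, Col4a5, Col8a1, Col12a1, P4ha1, Adamts2, Lox, Loxl1, Loxl3, Lama3, Lama4 and Lamb3 are not analysed here. The genes were chosen by function from among those whose fold changes and adjusted p-values between knockdown and control cells were already known, so the counts of genes that passed the test are a description of the set and not a test of it.

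Collagens are trimers whose chains are hydroxylated, glycosylated and folded in the endoplasmic reticulum with the help of dedicated enzymes and chaperones. After secretion the ends of the fibril-forming collagens are removed by proteinases, the trimers assemble into fibrils, networks or filaments, and lysyl oxidases cross-link them. A basement membrane is a sheet of type IV collagen and laminin networks joined by nidogen and heparan sulfate proteoglycans, on which epithelial cells sit and which carcinoma cells both produce and cross.

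The study profiled E0771, a breast adenocarcinoma cell line of C57BL/6 mice, by bulk MARS-seq, a method that counts unique molecular identifiers (UMIs) on the 3′ ends of polyadenylated transcripts. Cells were transduced with lentiviral vectors carrying either an empty control construct (shControl, 3 libraries) or a short hairpin RNA against Lmna, the gene of lamin A and lamin C (shLmna, 3 libraries), and both populations were selected with puromycin and expanded. The knockdown libraries are titled with the name shRNA4 and described as shLmna, each population is a pool of transduced cells grown in culture, and nothing in the labels says that the replicates came from separate cultures, so the p-values measure only the spread between these libraries. The shControl libraries were at plate positions 13, 14 and 15 and the shLmna libraries at 16, 17 and 18, so plate position and group cannot be told apart.

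The libraries held between 1846208 and 3242051 UMIs. Lmna itself had 2066, 2794 and 1764 UMIs in the shControl libraries and 1035, 1023 and 713 in the shLmna libraries, and its normalized count was 2169 ± 156 (SD, n = 3) against 946 ± 15.7. This was a log2 fold change of -1.20 (SE 0.13, adjusted p = 3.55e-05 by the quasi-likelihood test of edgeR, adjusted by the method of Benjamini and Hochberg over 8969 genes; every adjusted p given as an edgeR adjusted p is of this kind), and the value was -1.13 over the 4 libraries described next. The normalized count is the UMI count scaled to the mean effective library size, and every log2 fold change is of shLmna over shControl.

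A pair of libraries stood apart. Melanocyte transcripts, which a breast carcinoma line should lack, were abundant in shControl replicate 3 and shLmna replicate 2: the UMIs of Mlana, Pmel, Tyrp1, Dct, Sox10 and Mitf (6 of 7 markers listed) summed to 1421 (749 counts-per-million, CPM) and 1647 (629 CPM) in those libraries, and to 15, 7, 2 and 5 (at most 5.62 CPM) in the other 4, where between 2 and 4 of the markers were at 0. The study also worked with B16F10 melanoma cells. The part of these transcripts in the results was not tested, and results are therefore given over all 6 libraries and over the 4 without them, which are 2 of shControl and 2 of shLmna. The epithelial keratin gene Krt8 was present at 686 ± 68.2 normalized counts in shControl and 722 ± 38.3 in shLmna. The other tested epithelial markers, Epcam, Krt14 and Krt18, had lower counts and negative log2 fold changes, which are given below.

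**Figure D1:**
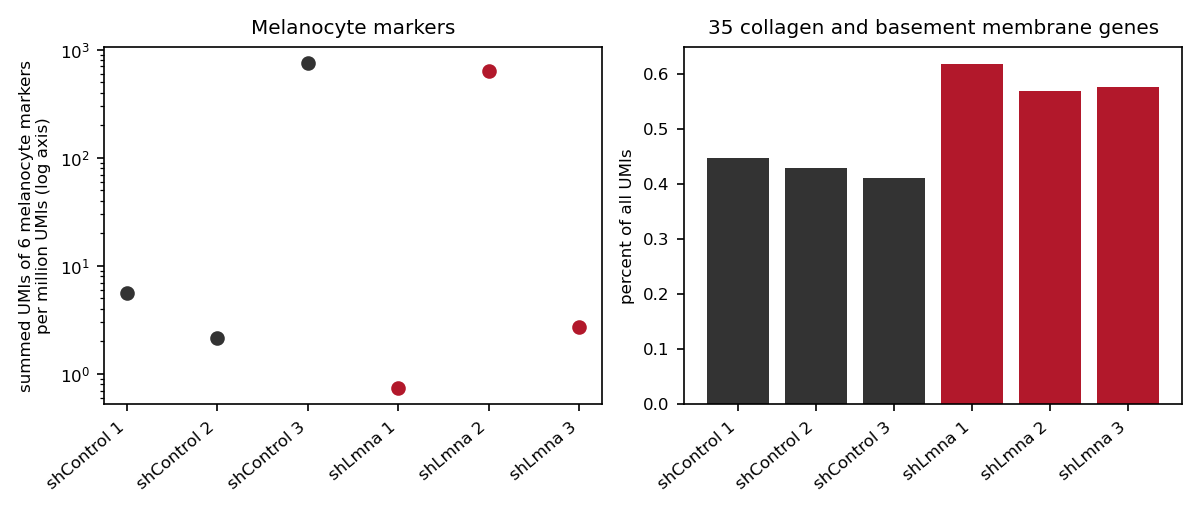
The left plot shows the summed UMIs of 6 melanocyte markers in CPM on a log axis for each library, and the right plot shows the share of all UMIs, in percent, that fell on the 35 collagen and basement membrane genes. The melanocyte markers are high in shControl replicate 3 (749 CPM) and shLmna replicate 2 (629 CPM), and the collagen and basement membrane share is between 0.410% and 0.447% in shControl and between 0.568% and 0.617% in shLmna.

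Summed over its genes, the set took a larger share of the UMIs in the knockdown cells. Such a sum is weighted towards the genes with the most UMIs, and 19 of the 33 tested genes did not pass the test described next. Its 35 genes made up 0.447%, 0.429% and 0.410% of all UMIs in the shControl libraries and 0.617%, 0.568% and 0.575% in the shLmna libraries, so the groups did not overlap. In bulk samples a change in the number of cells that express a gene and a change in the RNA of each cell cannot be told apart.

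Of the 35 genes, 33 had enough counts to be tested, and 13 were higher and 1 was lower in shLmna at an edgeR adjusted p below 0.05. Over all genes tested, 7.96% were called higher and 5.78% lower. The count of 13 includes Col3a1, which passed the filter on low counts only through the shLmna libraries and so had to differ to be tested, and it is counted in the same way among the collagen chains and under the criteria of the study; without it 12 genes were higher. The groups of 3 libraries did not overlap for 18 of the genes in the higher direction and 3 in the lower, against 16.8% and 15.7% of all tested genes. The log2 fold change was above 0 for 27 of the 33 and below 0 for 6, with a median of 0.42, while 50.4% of all tested genes lay above 0 and their median was 0.0033. Under the criteria of the study, which add an absolute log2 fold change above 1 and a mean normalized count above 5, Col3a1, Col18a1, Col6a1, Col16a1, P4ha3, Pcolce and Loxl2 were higher and Col7a1 was lower; 3.97% and 1.74% of all tested genes met them. Over the 4 libraries without melanocyte transcripts 12 genes were higher and 1 lower (7.70% and 5.45% of all tested genes), and the median was 0.46. The call that was lost was that of Col6a2, which with an edgeR adjusted p of 0.0409 was also the last gene inside the threshold over 6 libraries; Hspg2, at 0.0644, was the first outside it.

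**Figure D2:**
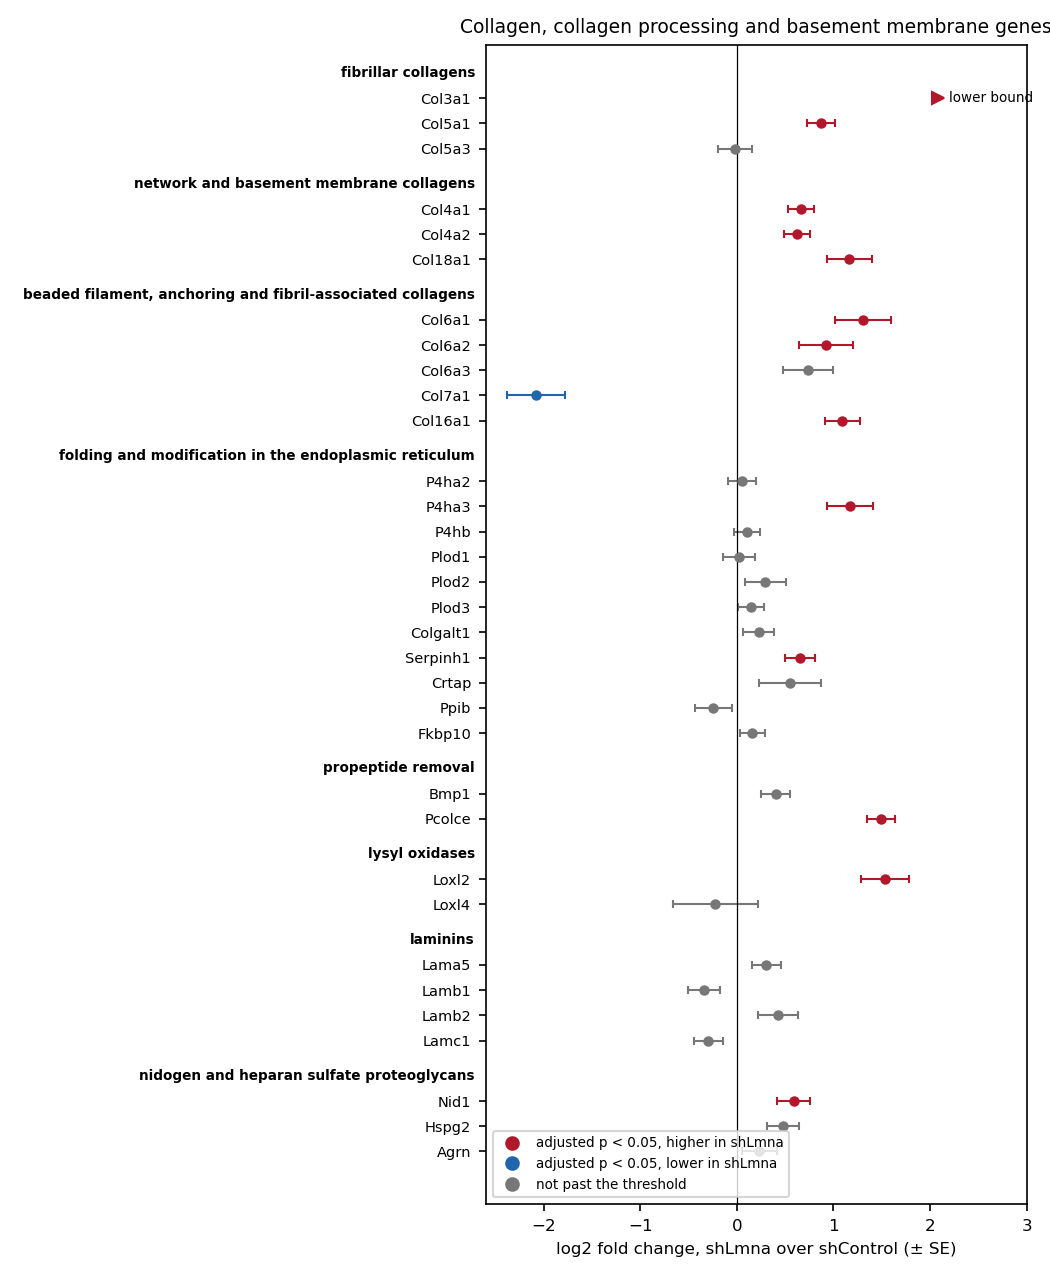
Log2 fold change of shLmna over shControl (x axis, with its SE) for each tested collagen, collagen-processing and basement membrane gene, arranged by role and coloured by whether it passed an adjusted p of 0.05; the triangle for Col3a1 is a lower bound with no SE. Of the 33 genes, 13 called higher lie to the right of 0, Col7a1 lies far to the left, and the laminin genes lie on both sides of 0.

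Most of the collagen chains that could be tested passed the test. Of 18 chain genes in the set, 13 were in the table and 11 were tested, of which 8 were higher, 1 was lower and 2 did not pass the test. Over all genes tested, the shares were 7.96% higher and 5.78% lower. The 8 include Col3a1, which had to differ to be tested, and Col6a2, whose call was lost over the 4 libraries.

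Among the fibril-forming chains, Col3a1 and Col5a1 were higher in shLmna, Col5a3 did not pass the test, and Col1a1 and Col1a2 had too few UMIs to test. Col3a1, the chain of type III collagen of loose connective tissue and vessel walls (chr1:45311538-45349706, plus strand; all gene positions are of GRCm38), had 0 UMIs in all 3 shControl libraries and 13, 12 and 12 in the shLmna libraries. The groups did not overlap, and with each shControl library set to the 3 UMIs that a count of 0 allows, Col3a1 was at least 4.22-fold higher in shLmna. The floor covers counting error only. Col5a1, the chain of type V collagen that nucleates type I collagen fibrils and sets their diameter (chr2:27886425-28039514), had normalized counts of 348, 341 and 298 in shControl and 672, 549 and 587 in shLmna. Every shLmna library lay above every shControl library. Its mean was 329 ± 27.1 (SD, n = 3) against 603 ± 63.1, a 1.83-fold difference with a log2 fold change of 0.87 (SE 0.14, edgeR adjusted p = 0.0011), and the value over the 4 libraries was 0.87 (SE 0.17, edgeR adjusted p = 0.0011). Col5a3, a minor chain of type V collagen, had 133 ± 8.80 normalized counts in shControl and 133 ± 26.8 in shLmna (log2 fold change -0.02, SE 0.18, edgeR adjusted p = 0.962). The chains of type I collagen, the main collagen of bone, tendon and stroma, were near the detection limit: Col1a1 had 5, 2 and 7 UMIs in shControl and 10, 3 and 11 in shLmna, and Col1a2 had 2, 0 and 1 against 5, 6 and 1.

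The promoter of Col3a1 is shown because its transcript was seen in the shLmna libraries and not in the shControl libraries, and the promoters of Pcolce and Col7a1 because these genes had the lowest adjusted p among the genes called higher and the only call in the lower direction. Each is the RefSeq window on GRCm38.p6 from 250 bases before to 50 bases after the transcript start, 5′ to 3′ on the gene's strand. Col3a1 is on chr1:45311288-45311587 (plus strand), Pcolce on chr5:137611355-137611654 (minus strand; its RefSeq start lies inside the longer GENCODE gene interval) and Col7a1 on chr9:108953336-108953635 (plus strand). Capitals mark matches to any of 4 motifs, on the strand shown or, as the reverse complement, on the other. TATAAA is the usual form of the box that positions the start, CCAAT is a promoter element bound by the factor NF-Y, GGGCGG is the box bound by Sp1, and GGAATG is the core recognised by the TEAD factors.
Col3a1: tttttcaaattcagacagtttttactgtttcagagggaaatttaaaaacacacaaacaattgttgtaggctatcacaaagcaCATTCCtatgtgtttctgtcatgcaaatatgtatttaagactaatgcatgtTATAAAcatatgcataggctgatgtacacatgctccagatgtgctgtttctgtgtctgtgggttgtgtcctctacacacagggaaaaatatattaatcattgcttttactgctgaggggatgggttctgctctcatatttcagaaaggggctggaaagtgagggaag
Pcolce: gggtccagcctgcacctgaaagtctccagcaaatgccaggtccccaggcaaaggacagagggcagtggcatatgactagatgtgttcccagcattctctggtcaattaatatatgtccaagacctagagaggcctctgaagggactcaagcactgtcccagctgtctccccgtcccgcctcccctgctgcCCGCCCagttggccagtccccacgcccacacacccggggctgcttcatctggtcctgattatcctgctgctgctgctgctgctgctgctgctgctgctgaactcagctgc
Col7a1: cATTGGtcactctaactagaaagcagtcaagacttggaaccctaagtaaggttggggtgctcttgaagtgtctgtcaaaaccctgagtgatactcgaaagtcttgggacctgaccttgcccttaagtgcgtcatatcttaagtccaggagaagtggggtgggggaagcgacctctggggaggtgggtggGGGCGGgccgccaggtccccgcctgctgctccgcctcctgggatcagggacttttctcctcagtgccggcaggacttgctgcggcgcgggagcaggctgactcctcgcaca

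In the Col3a1 window TATAAA starts 117 bases before the transcript start and GGAATG, on the reverse strand, 168 bases before it. The Pcolce window holds GGGCGG on the reverse strand 60 bases before the start, and the Col7a1 window holds GGGCGG 61 bases and reverse CCAAT 249 bases before it. Of the 35 genes, 29 had a window in the RefSeq table (33 windows in all, none for Loxl2), and 12 of these 29 were called higher. A gene was counted for a motif if any of its windows held it. GGGCGG was present for 10 of those 12 genes and for 24 of the 29, CCAAT for 5 and 12, GGAATG for 4 and 5, and TATAAA for 1 and 3. By single window GGGCGG was in 27 of the 33, against 35.7% of all 32851 promoter windows. CCAAT was in 12 (37.4% of all windows), GGAATG in 5 (14.7%) and TATAAA in 3 (13.6%). The set of all windows was not limited to genes in the count table. None of these motifs contains another, and a match describes the sequence and is no evidence that a factor binds there.

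The network-forming and basement membrane collagens were higher in shLmna for all 3 genes tested, against 7.96% of all tested genes. Col4a1 and Col4a2 encode the chains of the type IV collagen trimer, the scaffold of every basement membrane, and lie head to head on chromosome 8. Col4a1 (chr8:11198423-11312826, minus strand) and Col4a2 (chr8:11312805-11449287, plus strand) overlap by 22 bases at their 5′ ends, and their promoter windows share 78 bases. The windows are shown because both genes, which are read in opposite directions from these bases, were called higher; capitals mark the shared bases (chr8:11312777-11312854). The Col4a1 window is chr8:11312777-11313076 on the minus strand and the Col4a2 window chr8:11312555-11312854 on the plus strand.
Col4a1: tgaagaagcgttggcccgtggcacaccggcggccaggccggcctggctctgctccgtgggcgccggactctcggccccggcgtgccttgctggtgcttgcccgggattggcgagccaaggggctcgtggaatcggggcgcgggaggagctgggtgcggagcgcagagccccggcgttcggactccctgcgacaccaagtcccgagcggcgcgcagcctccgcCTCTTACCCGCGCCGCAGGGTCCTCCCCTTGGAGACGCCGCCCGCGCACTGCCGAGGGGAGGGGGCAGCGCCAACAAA
Col4a2: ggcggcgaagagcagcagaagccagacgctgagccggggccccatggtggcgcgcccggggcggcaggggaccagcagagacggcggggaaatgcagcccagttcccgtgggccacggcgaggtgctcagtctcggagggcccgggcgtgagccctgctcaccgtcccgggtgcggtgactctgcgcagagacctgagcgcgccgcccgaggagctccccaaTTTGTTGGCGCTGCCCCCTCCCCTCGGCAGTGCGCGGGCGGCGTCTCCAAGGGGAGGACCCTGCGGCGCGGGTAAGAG

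Col4a1 had normalized counts of 685, 589.6 and 597 in shControl and 997, 949 and 1015 in shLmna, and Col4a2 had 579, 534 and 531 against 888, 783 and 856. For neither gene did the groups overlap. The mean of Col4a1 went from 624 ± 53.0 (SD, n = 3) to 987 ± 34.2, a 1.58-fold rise (log2 fold change 0.66, SE 0.13, edgeR adjusted p = 0.0046). That of Col4a2 went from 548 ± 26.6 to 843 ± 53.7, a 1.54-fold rise (log2 fold change 0.62, SE 0.13, edgeR adjusted p = 0.0066). Over the 4 libraries the log2 fold changes were 0.66 (SE 0.16, edgeR adjusted p = 0.0096) for Col4a1 and 0.65 (SE 0.16, edgeR adjusted p = 0.0101) for Col4a2. Whether the genes differed in their response was not tested.

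Col18a1, whose product is a basement membrane collagen with heparan sulfate chains and the precursor of endostatin, had 43.8, 55.2 and 30.3 normalized counts in shControl and 87.5, 93.9 and 118 in shLmna. The groups did not overlap, and shControl replicate 3 was the lowest library. Its mean was 43.1 ± 12.4 (SD, n = 3) against 99.7 ± 15.8, a 2.24-fold difference with a log2 fold change of 1.16 (SE 0.23, edgeR adjusted p = 0.0042) over 6 libraries and 1.03 (SE 0.25, edgeR adjusted p = 0.0077) over 4. Col18a1 (chr10:77052178-77166548), Col6a1 (chr10:76708792-76726168) and Col6a2 (chr10:76595762-76623630) lie on the minus strand within 571 kb of chromosome 10, with 85.2 kb between Col6a2 and Col6a1 and 326.0 kb between Col6a1 and Col18a1.

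**Figure D3:**
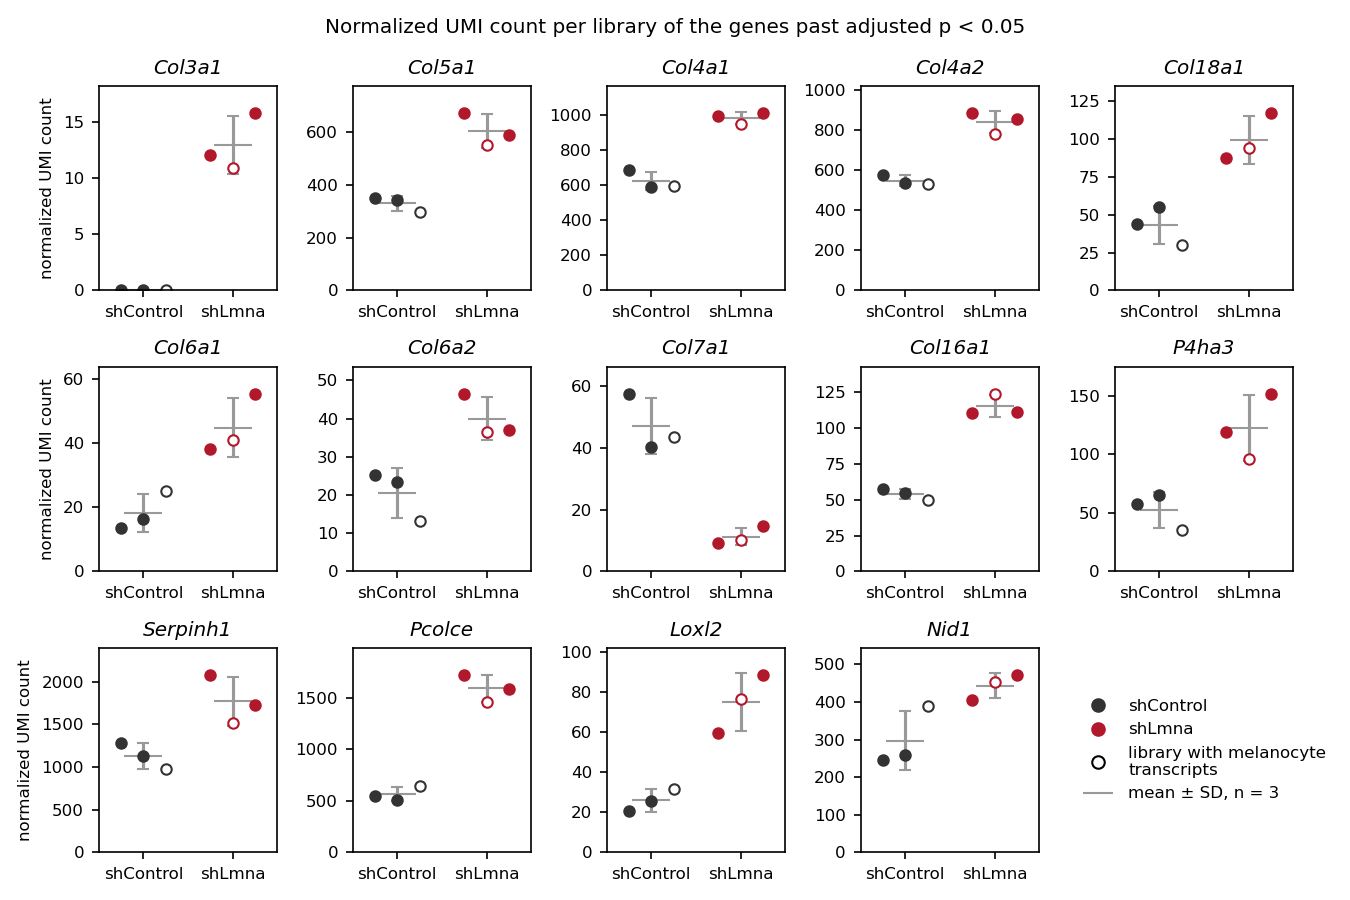
Normalized UMI count of each library (points) with the mean and SD of the group (n = 3) for the 14 genes with an adjusted p below 0.05; each panel has its own axis from 0, and open points are the libraries with melanocyte transcripts. In all 14 panels the groups do not overlap, with shLmna above shControl in 13 and below it for Col7a1, whose shLmna libraries lie between 9.31 and 14.5.

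Type VI collagen forms beaded filaments around cells and beside basement membranes, and is a trimer of 3 different chains. Col6a1 had 13.6, 16.3 and 25.0 normalized counts in shControl and 38.2, 41.0 and 55.5 in shLmna (18.3 ± 5.96 against 44.9 ± 9.28, SD, n = 3). The groups did not overlap. Its log2 fold change was 1.31 (SE 0.29, edgeR adjusted p = 0.0084), a 2.48-fold difference, and 1.60 (SE 0.34, edgeR adjusted p = 0.0029) over the 4 libraries; the call was lost without shControl replicate 2 (edgeR adjusted p = 0.0654) or shLmna replicate 3 (0.0506). Col6a2 had 25.3, 23.3 and 13.2 normalized counts against 46.6, 36.5 and 37.0, again with no overlap (20.6 ± 6.51 against 40.0 ± 5.67). Its log2 fold change of 0.92 (SE 0.28, edgeR adjusted p = 0.0409) did not outlast the loss of any single library, with adjusted p between 0.0538 and 0.150, and was 0.80 (SE 0.31, edgeR adjusted p = 0.0901) over the 4 libraries. Col6a3, the largest chain, did not pass the test although its groups did not overlap either: it had 17.5, 29.5 and 29.0 normalized counts in shControl and 41.0, 44.7 and 41.0 in shLmna (log2 fold change 0.74, SE 0.26, edgeR adjusted p = 0.0753, and 0.120 over the 4 libraries).

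Col7a1 went the other way. It encodes type VII collagen, which forms the anchoring fibrils that fasten the epithelial basement membrane to the stroma below (chr9:108953586-108984875, plus strand). The UMI counts were 59, 52 and 33 in shControl and 10, 11 and 11 in shLmna, or 57.5, 40.4 and 43.5 normalized counts against 9.31, 10.0 and 14.5. Every shLmna library lay well below every shControl library. Its mean was 47.1 ± 9.10 (SD, n = 3) in shControl and 11.3 ± 2.83 in shLmna, which was 4.24-fold lower, with a log2 fold change of -2.08 (SE 0.30, edgeR adjusted p = 0.00038) over 6 libraries and -2.06 (SE 0.37, edgeR adjusted p = 0.00055) over 4. Col16a1, a fibril-associated collagen found near basement membranes (chr4:130047840-130099283), was higher, with 57.5, 54.4 and 50.1 normalized counts in shControl and 111, 124 and 111 in shLmna. The spread within each group was small beside the gap between them (54.0 ± 3.71 against 115 ± 7.60). The log2 fold change was 1.09 (SE 0.18, edgeR adjusted p = 0.0013), a 2.13-fold difference, and 0.99 (SE 0.23, edgeR adjusted p = 0.0055) over the 4 libraries.

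Of the 11 tested genes that fold and modify collagen in the endoplasmic reticulum, 2 were higher, none was lower and 9 did not pass the test. The shares over all tested genes were 7.96% higher and 5.78% lower. P4ha3, a catalytic subunit of the prolyl 4-hydroxylase whose product hydroxyproline stabilises the triple helix (chr7:100285520-100319699), had 57.5, 65.2 and 35.6 normalized counts in shControl and 119, 95.8 and 152 in shLmna. The groups did not overlap, and the lowest library was shControl replicate 3. The mean was 52.8 ± 15.4 (SD, n = 3) against 122 ± 28.2, a 2.25-fold difference with a log2 fold change of 1.17 (SE 0.24, edgeR adjusted p = 0.0049) over 6 libraries and 1.13 (SE 0.23, edgeR adjusted p = 0.0017) over 4. The other subunits of this enzyme in the table did not pass the test: P4ha2, another catalytic subunit, had 205 ± 9.33 normalized counts in shControl and 213 ± 11.5 in shLmna (log2 fold change 0.06, SE 0.15, edgeR adjusted p = 0.851).

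P4hb, the protein disulfide isomerase that serves as the enzyme's other subunit and the gene with the highest count in the group, had 2173, 2184 and 1957 normalized counts in shControl and 2538, 2145 and 2095 in shLmna, and the groups overlapped. Its means were 2104 ± 128 (SD, n = 3) and 2259 ± 243 (log2 fold change 0.10, SE 0.14, edgeR adjusted p = 0.671, and 0.09, SE 0.16, over the 4 libraries). Serpinh1, the collagen-specific chaperone HSP47 (chr7:99345376-99353239), had 1281, 1124 and 977 normalized counts in shControl and 2081, 1512 and 1721 in shLmna. All shLmna libraries were above all shControl libraries, by 1.57-fold on the fitted scale (1127 ± 152 against 1771 ± 288). The log2 fold change of Serpinh1 was 0.65 (SE 0.16, edgeR adjusted p = 0.0126) over 6 libraries and 0.66 (SE 0.17, edgeR adjusted p = 0.0103) over 4; it lost the call without shControl replicate 2 (edgeR adjusted p = 0.0736) or shLmna replicate 1 (0.0702).

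The 9 genes of this step that did not pass the test included the lysyl hydroxylases Plod1, Plod2 and Plod3, the galactosyltransferase Colgalt1, and the prolyl 3-hydroxylation partners Crtap and Ppib, with log2 fold changes between -0.24 and 0.55 and edgeR adjusted p between 0.285 and 0.960. The lowest value was that of Ppib, a peptidyl-prolyl isomerase, with 1142 ± 182 normalized counts in shControl and 962 ± 285 in shLmna. Crtap, with the highest, had 26.3, 17.1 and 48.8 normalized counts in shControl and 39.1, 49.2 and 39.6 in shLmna; its groups overlapped through shControl replicate 3, one of the libraries with melanocyte transcripts. Over the 4 libraries the log2 fold change of Crtap was 0.88 (SE 0.33, edgeR adjusted p = 0.0797), and it was called higher without shControl replicate 3 and over the 4 libraries with GC correction. Plod2, which hydroxylates lysines in the telopeptides, shared that pattern, with 80.9, 100.2 and 149 normalized counts against 117, 134 and 149, and a log2 fold change of 0.29 (SE 0.21) over 6 libraries and 0.54 (SE 0.22, edgeR adjusted p = 0.106) over 4. Colgalt1 and Ppib have counted 3′ ends that overlap a gene on the opposite strand, and use of strand in the counting is not stated in the sources used here.

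Removal of the C-terminal propeptide lets fibril-forming collagen assemble. Pcolce, the enhancer protein that speeds this cleavage (chr5:137605103-137613784), had 565, 653 and 488 UMIs in shControl and 1849, 1602 and 1196 in shLmna, or 550.5, 507 and 643 normalized counts against 1721, 1461 and 1580.0. The lowest shLmna library was more than any shControl library by a wide margin. Its mean was 567 ± 69.5 (SD, n = 3) in shControl and 1588 ± 130.4 in shLmna, a 2.80-fold rise with a log2 fold change of 1.49 (SE 0.14, edgeR adjusted p = 1.32e-05), and 1.65 (SE 0.17, edgeR adjusted p = 4.54e-07) over the 4 libraries. Bmp1, the proteinase that makes the cut, had 250.4, 213 and 198 normalized counts in shControl and 288, 264 and 324 in shLmna. These did not overlap, but the difference did not pass the test (log2 fold change 0.40, SE 0.15, edgeR adjusted p = 0.100, and 0.148 over the 4 libraries).

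Of the lysyl oxidases, which make the aldehydes from which collagen cross-links form, Loxl2 and Loxl4 were tested. Loxl2, an enzyme active on type IV collagen in basement membranes (chr14:69609068-69695834), had 21, 33 and 24 UMIs in shControl and 64, 84 and 67 in shLmna, or 20.5, 25.6 and 31.6 normalized counts against 59.6, 76.6 and 88.5. The groups were clearly apart (25.9 ± 5.59 against 74.9 ± 14.5, SD, n = 3). Its log2 fold change was 1.54 (SE 0.25, edgeR adjusted p = 0.00089), a 2.90-fold difference, and 1.65 (SE 0.30, edgeR adjusted p = 0.00054) over the 4 libraries. Loxl4 had 11.9 ± 4.17 normalized counts in shControl and 10.6 ± 5.73 in shLmna (log2 fold change -0.22, SE 0.44, edgeR adjusted p = 0.794). With 7 to 17 UMIs in each library a difference within that error was not detectable at this depth.

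None of the 4 laminin chains tested passed the test, and none had an unadjusted p below 0.05 in edgeR; DESeq2 and limma-voom also called 0. Lamc1, the gamma chain shared by most laminins and the gene with the highest count in the group, had 317, 287 and 246.5 normalized counts in shControl and 245.8, 225 and 222 in shLmna. These groups abutted without overlap (284 ± 35.2 against 231 ± 12.9, SD, n = 3), with a log2 fold change of -0.30 (SE 0.15, edgeR adjusted p = 0.210) over 6 libraries and -0.36 (SE 0.18, edgeR adjusted p = 0.192) over 4. Lamb1, a beta chain, was at 162 ± 20.7 and 128 ± 15.01 (log2 fold change -0.34, SE 0.17, edgeR adjusted p = 0.202). Lama5, the alpha chain of the main laminins of adult epithelial basement membranes, was at 193 ± 16.2 and 238 ± 7.07 (0.31, SE 0.15, edgeR adjusted p = 0.187), and Lamb2 at 63.9 ± 10.7 and 86.2 ± 14.6 (0.42, SE 0.21, edgeR adjusted p = 0.196). The counted end of Lamb2 overlaps an exon of Usp19 on the same strand, and that of Lama5 overlaps an exon of Adrm1 on the opposite strand. The part of reads from those genes was not tested.

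Of nidogen and the heparan sulfate proteoglycans, 1 of 3 was higher, against 7.96% of all tested genes. Nid1, which links the laminin and type IV collagen networks (chr13:13437551-13512269), had 246, 258 and 389 normalized counts in shControl and 406, 453 and 473 in shLmna. The groups did not overlap, but shControl replicate 3 lay closer to the shLmna libraries than to the other shControl libraries. Its mean was 297 ± 79.4 (SD, n = 3) against 444 ± 34.4, a 1.501-fold difference with a log2 fold change of 0.59 (SE 0.18, edgeR adjusted p = 0.0384), and 0.80 (SE 0.17, edgeR adjusted p = 0.0033) over the 4 libraries. The call was kept without shControl replicate 3 and lost when any other single library was left out (edgeR adjusted p between 0.0689 and 0.190). Hspg2, the gene of perlecan, had 317, 320.0 and 270.2 normalized counts in shControl and 515, 390.4 and 358 in shLmna, which did not overlap (log2 fold change 0.48, SE 0.16, edgeR adjusted p = 0.0644, and 0.102 over the 4 libraries). Agrn, the gene of agrin, was at 101 ± 18.8 and 118 ± 4.65 (0.23, SE 0.18, edgeR adjusted p = 0.441).

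**Figure D4:**
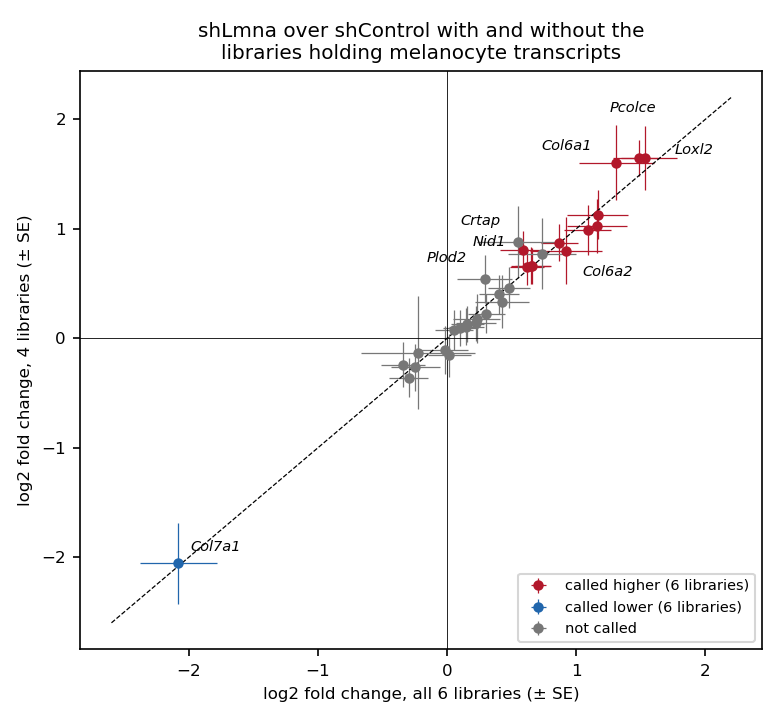
Log2 fold change of shLmna over shControl over all 6 libraries (x axis) against that over the 4 libraries without melanocyte transcripts (y axis), each with its SE, for the tested genes of the set within the range drawn; the dashed line marks equal values. The genes lie along the line, Col7a1 at -2.08 and -2.06 and Pcolce at 1.49 and 1.65.

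The 19 tested genes that did not pass the test had log2 fold changes between -0.34 and 0.74, 14 of them above 0, with SE between 0.13 and 0.44 and edgeR adjusted p between 0.0644 and 0.962, and none of the 19 was called over the 4 libraries without GC correction. A p above the threshold does not show that these genes were alike in both groups.

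A measure that the choice of genes did not use is the base composition of the counted 3′ end, the last 1000 bases of the transcript and 100 bases downstream. The GC content was computed over the last 1000 bases of the transcript alone. Its median was 47.1% over all tested genes, 44.3% over those called higher and 49.6% over those called lower, so base composition moved with the contrast. The 35 genes of the set had a median of 51.3%, and the 13 that were higher had 50.3%, from 33.1% for Col3a1 to 61.1% for Col18a1. With a correction for GC content 13 of the 14 calls were kept; that of Nid1, whose end has 37.5% GC, was lost (log2 fold change 0.35, edgeR adjusted p = 0.0985). None of the 14 called genes has a counted end that overlaps another gene.

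Markers of other cell types were examined as well. Of 7 fibroblast markers 3 were in the table, of which Acta2 and Pdgfrb were called higher over 6 libraries, Acta2 alone over 4, and Pdgfra in neither; their summed normalized count was between 39.5 and 55.2 in shControl and between 83.8 and 102 in shLmna. Acta2, smooth muscle actin, had 7, 13 and 3 UMIs in shControl and 26, 41 and 31 in shLmna (log2 fold change 2.18, SE 0.37, edgeR adjusted p = 0.0015, and 1.87, SE 0.42, edgeR adjusted p = 0.0048, over the 4 libraries). Like Col3a1, Acta2 passed the filter on low counts only through the shLmna libraries, so its call is a description and not a test. Pdgfrb had 26, 41 and 19 UMIs against 51, 49 and 36 (log2 fold change 0.74, SE 0.23, edgeR adjusted p = 0.0457, and 0.106 over the 4 libraries), and Pdgfra had 12.8 ± 2.07 and 13.3 ± 1.25 normalized counts (log2 fold change 0.04, SE 0.34, edgeR adjusted p = 0.958). Thy1, Dcn, Lum and Fap are not analysed here. Of 8 epithelial markers 5 were in the table and 4 were tested, and none was called over 6 libraries. Their sum was between 685 and 819 in shControl and between 732 and 791 in shLmna. Most of it was Krt8 (log2 fold change 0.07, edgeR adjusted p = 0.776). The other tested markers had negative values over 6 libraries: Krt14 -1.18 (SE 0.42, edgeR adjusted p = 0.0772), Krt18 -0.53 (SE 0.43, edgeR adjusted p = 0.453) and Epcam -0.90 (SE 0.34, edgeR adjusted p = 0.0909). The groups did not overlap for Krt14 and Epcam. Krt14 had 18, 31 and 15 UMIs in shControl and 8, 5 and 13 in shLmna. It passed the filter on low counts only through the shControl libraries, so its value is a description and not a test. Epcam, the epithelial adhesion molecule, was lower over the 4 libraries (log2 fold change -1.51, SE 0.37, edgeR adjusted p = 0.0083), with 33.1, 35.7 and 33.0 normalized counts in shControl and 13.03, 29.2 and 10.6 in shLmna. Leukocyte markers summed to between 89.6 and 96.2 in shControl and between 42.8 and 44.9 in shLmna (2 of 5 in the table, Cd14 called lower at a log2 fold change of -1.30, edgeR adjusted p = 0.0026), and of 5 endothelial markers only Pecam1 was in the table, with 7, 2 and 6 UMIs against 2, 5 and 4. Their part in the collagen values was not tested.

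The wider matrix was examined with 111 further genes of collagens, their processing, basement membranes, collagen and laminin receptors and elastic fibres, of which 46 were in the table and 33 were tested. Of these 8 were higher and 2 were lower (8 and 1 over the 4 libraries), with a median log2 fold change of 0.17. The shares over all tested genes were 7.96% higher and 5.78% lower (7.70% and 5.45% over the 4 libraries), and the lower calls were close to that share. None of the 11 small leucine-rich proteoglycans listed was in the table.

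The collagen and laminin receptors had 3 genes higher and 1 lower of 11 tested, against 7.96% and 5.78% of all tested genes. Ddr1 and Ddr2 are receptor tyrosine kinases that bind collagen itself. The counted end of Ddr2 overlaps an exon of 3110045C21Rik on the opposite strand, and use of strand in the counting is not stated. Ddr2 had 12.7, 17.9 and 39.5 normalized counts in shControl and 65.2, 88.5 and 85.9 in shLmna, with no overlap; its log2 fold change was 1.84 (SE 0.32, edgeR adjusted p = 0.0015) over 6 libraries and 2.26 (SE 0.31, edgeR adjusted p = 2.7e-05) over 4. Ddr1 had 52.6, 57.5 and 64.6 against 130.3, 134 and 155, also with no overlap (log2 fold change 1.26, SE 0.18, edgeR adjusted p = 0.00038, and 1.36, SE 0.22, over 4). Dag1, the gene of dystroglycan, a laminin receptor, was at 348 ± 18.3 and 547 ± 53.7 (log2 fold change 0.65, SE 0.14, edgeR adjusted p = 0.0067). Itgb1, the beta subunit common to the collagen-binding integrins, was lower at 1182 ± 166 and 856 ± 94.1 (log2 fold change -0.47, SE 0.15, edgeR adjusted p = 0.0498, and 0.0411 over the 4 libraries), and the call was lost without shControl replicate 1 (0.117) or 2 (0.204) or shLmna replicate 2 (0.165) or 3 (0.154).

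Among the fibronectin, fibrillin and elastic fibre genes 3 of 6 tested were higher and 1 was lower, against 7.96% and 5.78% of all tested genes. Emilin1, an elastic fibre glycoprotein, had 29.2, 34.95 and 25.0 normalized counts in shControl and 94.0, 73.9 and 63.4 in shLmna (log2 fold change 1.36, SE 0.23, edgeR adjusted p = 0.0015). Ltbp4, a latent TGF-beta binding protein, had 317, 216 and 169 against 611, 420.4 and 466 (1.09, SE 0.21, edgeR adjusted p = 0.0034), and Efemp2, fibulin-4, 213 ± 21.3 against 315 ± 29.7 (0.57, SE 0.15, edgeR adjusted p = 0.0202). For the first of these the groups stood well apart, and for none of them did they overlap. Fbln2, fibulin-2, was lower at 145 ± 13.3 and 101 ± 10.95 (log2 fold change -0.54, SE 0.17, edgeR adjusted p = 0.0478, and 0.0695 over the 4 libraries), and its call was kept only without shControl replicate 3 when single libraries were left out. Efemp2 lost its call without any one of shControl replicates 1 and 2 and shLmna replicates 1 and 3, with adjusted p of up to 0.111. Its counted end overlaps an exon of Mus81 on the opposite strand. Of the remaining lists, Tinagl1, a basement membrane protein (147 ± 28.4 against 284 ± 65.9, log2 fold change 0.94, SE 0.20, edgeR adjusted p = 0.0059), and P3h3, a member of the prolyl 3-hydroxylase family (64.0 ± 17.6 against 108 ± 9.08, 0.78, SE 0.21, edgeR adjusted p = 0.0222), were higher, and no gene was lower. Over the 4 libraries the log2 fold changes of Dag1, Emilin1, Ltbp4, Efemp2, Tinagl1 and P3h3 were 0.66, 1.31, 1.03, 0.71, 0.99 and 0.94, with edgeR adjusted p between 0.00084 and 0.0121. P3h3 kept its call only without shControl replicate 3 when single libraries were left out, with adjusted p of up to 0.136.

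**Figure D5:**
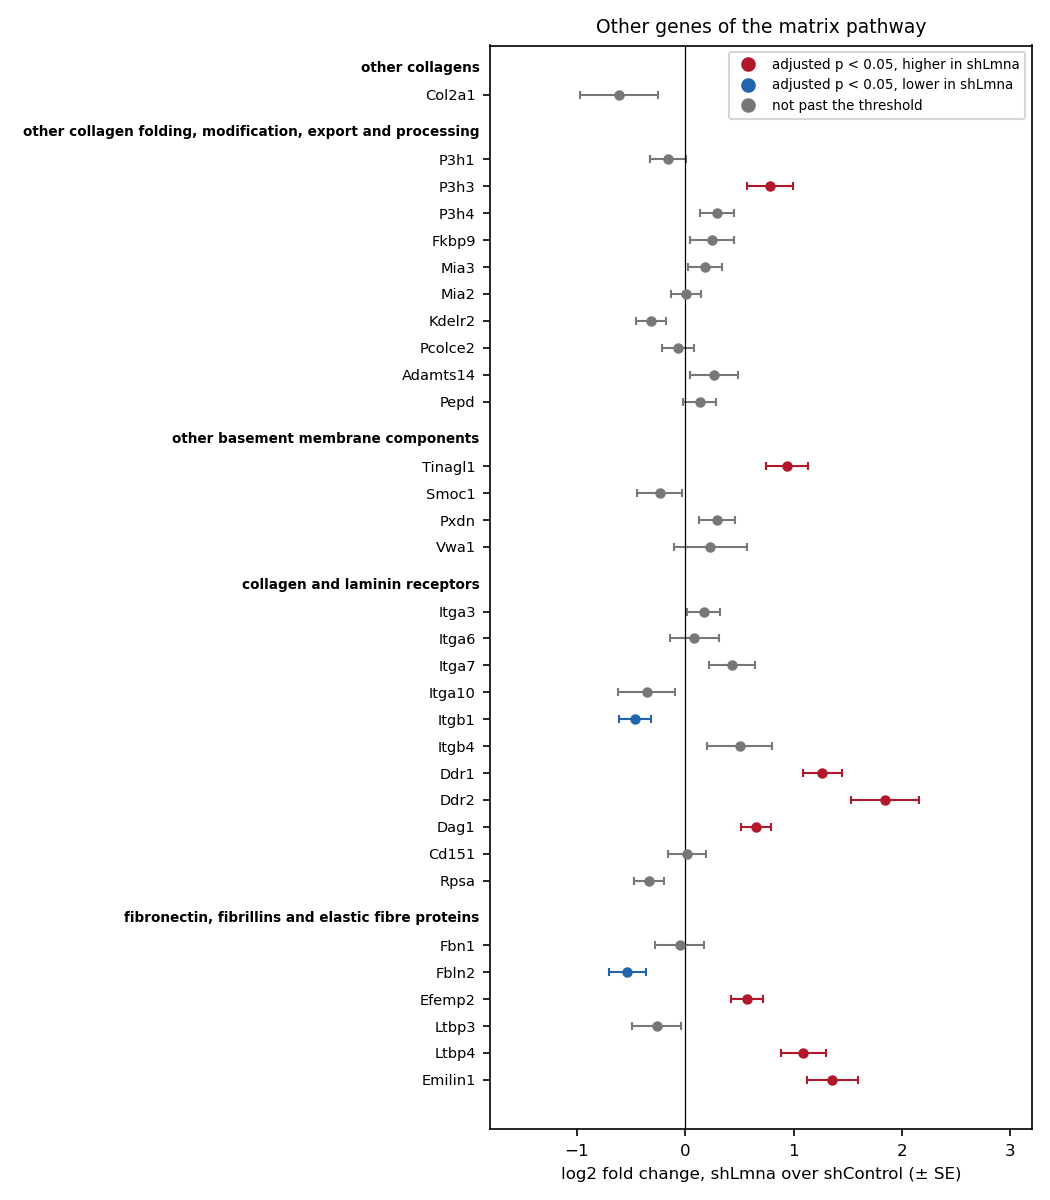
Log2 fold change of shLmna over shControl (x axis, with its SE) for the tested genes of the wider matrix lists that are reported here, arranged by list and coloured by whether it passed an adjusted p of 0.05. Ddr2 at 1.84 and Emilin1 at 1.36 lie farthest to the right, and most of the other genes lie near 0.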

How the data were processed

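Bulk RNA of 6 E0771 libraries, 3 shControl and 3 shLmna, was measured by MARS-seq. Per the labels, the study's methods and the submitters' processing notes, the authors trimmed reads with cutadapt, aligned them to mm10 with STAR 2.4.2a and counted UMIs with HTSeq over the last 1000 bases of RefSeq genes and 100 bases downstream; use of strand is not stated. The deposited counts are raw UMIs per gene. Also deposited were batch-adjusted log2 values and the authors' DESeq2 fold changes and p-values, neither of which was used.

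Groups were taken from the labels. All 10520 genes entered edgeR 4.0.16 in R 4.3.3 (filterByExpr with a minimum count of 10, TMM scaling, quasi-likelihood F-test, no replicate block, Benjamini-Hochberg adjustment, threshold 0.05), which left 8969, and the procedure was tested on simulated data. Normalized counts are UMIs divided by the effective library size and multiplied by its mean. The SE of an edgeR log2 fold change is its absolute value divided by the square root of the F statistic. Replicates differed by more than sampling noise (chi-square per degree of freedom 5.11 to 8.28). Gene positions are of GENCODE M21 (GRCm38), promoters of RefSeq (GRCm38.p6), matched by symbol.

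Values are given for every gene of the set with an adjusted p below 0.05 and for the gene with the highest mean count of each role; other genes singled out were chosen after their values were seen. The genes and lists were chosen with earlier results of these data known. Alternatives were RLE and upper-quartile scaling, DESeq2 1.42.0, limma-voom (limma 3.58.1), other filters, thinning, a GC correction, a replicate block and leaving out each library; the comparison over 4 libraries was added after the data were seen. One gene of the wider lists is counted but not reported here.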

Additional observations from a re-analysis of the deposited data

How the results depend on the processing

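Over 26 named genes and 461 comparisons with an alternative, 408 kept their direction and their side of the threshold, 52 lost the call and 1 changed sign: P4hb, not called in either, went from 0.10 to -0.0035 without shLmna replicate 1 and lay up to 0.16 without the other single libraries. With a mean count of at least 50 required, 8 genes of the set were higher, 0 were lower and 4 met the criteria of the study, against 13, 1 and 8, because Col3a1, Col6a1, Col6a2, Col7a1 and Loxl2 fell under the filter and Nid1 lost its call; 425 of all genes were then higher against 714. RLE and upper-quartile scaling, limma-voom and no filter kept all 14 calls, and DESeq2 lost that of Col6a2. Thinning to the smallest library kept 12, without Col6a2 and with Col3a1 under the filter, and GC correction 13, without Nid1. Crtap was called higher without shControl replicate 3 and over the 4 libraries with GC correction. Leaving out single libraries gave 9 to 13 genes of the set higher, 1 lower in each case, and 5 to 8 past the criteria of the study; 5 was without shLmna replicate 3. Over all genes 353 to 882 were higher and 187 to 698 lower, and Lmna lay between -1.26 and -1.15. Of the wider matrix genes 6 to 9 were higher and 0 to 2 lower.

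Of the 2 lower calls of the wider matrix, Itgb1 and Fbln2, 1 was made with upper-quartile scaling, DESeq2, the replicate block, GC correction with replicate block, and the 4 libraries with or without GC correction, and 0 were made with no filter, with a mean count of at least 50 or after thinning. The cause was not tested.

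The labels do not say that a replicate number marks a shared origin, and deviations of same-numbered libraries correlated at 0.335, -0.109 and 0.0101, so they were not taken as pairs. With the replicate block 14 genes of the set were higher, Hspg2 being added, and 1 lower, against 773 and 577 of all genes. Not every library correlated best with its own number, since shControl replicate 3 and shLmna replicate 2, those with melanocyte transcripts, correlated at 0.331.

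Genes with few UMIs, such as Col1a1, Col1a2 and Loxl4, are limited by depth.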

Other observations

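Among transcripts too rare to test, Col24a1, a fibril-forming collagen of developing bone and cornea, had 0, 3 and 0 UMIs in shControl and 8, 13 and 9 in shLmna, with no overlap. It passed the test when no filter on low counts was used (edgeR adjusted p = 0.0164) and in DESeq2 (adjusted p = 0.0285). It was singled out after its values were seen, and the other genes of its list went the other way. Col9a3, also too rare to test, had 9, 9 and 6 UMIs in shControl and 7, 5 and 4 in shLmna, and its normalized counts did not overlap. Col9a2 and Col15a1, too rare as well, had lower mean normalized counts in shLmna. Col2a1, which was tested, had a log2 fold change of -0.61 (SE 0.36, edgeR adjusted p = 0.293). Fn1, the gene of fibronectin, had 0, 1 and 8 UMIs in shControl and 1, 1 and 1 in shLmna; the 8 UMIs were in shControl replicate 3, one of the libraries with melanocyte transcripts.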
